A study of Homo sapiens with 34 samples.

Results

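Asparagine synthetase (*ASNS*) and 7 plasma membrane amino acid carriers (*SLC7A5*, *SLC3A2*, *SLC1A5*, *SLC1A4*, *SLC38A1*, *SLC38A2* and *SLC7A1*) were examined in a circadian time course of human cells in which the pentose phosphate pathway was inhibited. These 8 genes were chosen by name with earlier results of these data known, so their counts beside shares of all loci carry no test. Each matched 1 locus among the 28690 loci of the expression tables, and all 8 were among the 13979 loci with a mean of at least 1 FPKM (fragments per kilobase of transcript, scaled to the mapped fragments of the library) over all libraries.

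The cells were *Bmal1*:*luc* U2OS, a human osteosarcoma line that stably carries luciferase under the *Bmal1* promoter. All cultures, controls included, carried the reporter and were treated with either 5 mM 6-aminonicotinamide (6AN) or the solvent DMSO (control). Those for the RNA time course were synchronized with dexamethasone and kept in DMEM. 6AN is turned into an analog of NADP+ that inhibits the NADPH-producing dehydrogenases of the pentose phosphate pathway. RNA was sequenced every 4 hr from 0 to 44 hr by the labels, with 1 library for each condition and time point, 24 in all. Another 10 libraries were ChIP-seq of BMAL1, CLOCK, H3K4me3, H3K9ac and input, 1 for each condition, from chromatin taken after 24 hr in 6AN or DMSO. The labels do not say how long the cells had been in 6AN at 0 hr, and the study's plots start their time axis a day later than the labels, so hours here are label hours. Since the control and 6AN tables were normalized separately, no test was made between them, and differences between conditions are given as values with their spread over time points. Such a spread holds the change over time as well as measurement error, and not the variation between repeated experiments. In RNA from whole cultures, a change in every cell and a change in a part of the cells cannot be told apart.

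Cells obtain amino acids through carriers with overlapping substrates and make the non-essential ones themselves. ASNS transfers an amide group from glutamine to aspartate to make asparagine. SLC1A5 and the SLC38 carriers bring in glutamine and other neutral amino acids, and the SLC7A5-SLC3A2 heterodimer exchanges intracellular amino acids such as glutamine for leucine and other large neutral amino acids. When amino acids are short or protein folding is disturbed, phosphorylation of a translation initiation factor favors the synthesis of ATF4, a transcription factor that binds C/EBP-ATF response elements in *ASNS* and in many carrier genes.

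Expression of all 8 genes was higher in 6AN than in control at each of the 12 time points. Among all expressed loci, 13% were higher in 6AN at every time point and 20.4% were lower. The difference was expressed as log2((6AN + 1)/(control + 1)) of FPKM at each time point. Its mean over time ranged among the 8 genes from 0.25 for *SLC38A2* to 1.20 for *ASNS*, with a median of 0.68, while the median over all expressed loci was −0.04. For 3 genes, *ASNS*, *SLC1A4* and *SLC3A2*, the mean was at least 1, that is a 2-fold difference. This held for 1.51% of expressed loci, and 2.78% were as far in the opposite direction. The highest control value lay under the lowest 6AN value for 4 genes, *SLC3A2*, *SLC1A5*, *SLC1A4* and *SLC7A1*, as it did for 5.89% of expressed loci, while 10.3% were separated in the opposite direction.

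**Figure D1:**
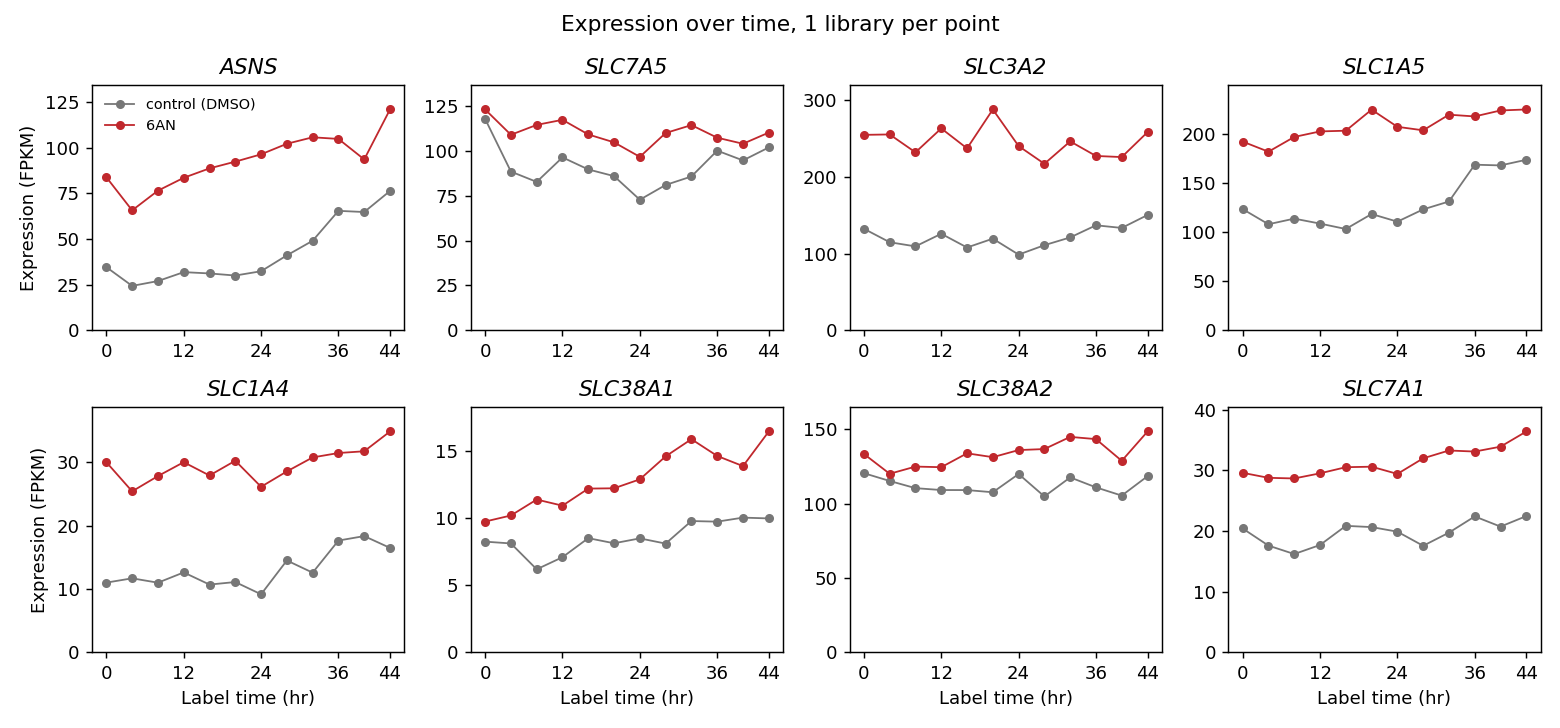
Expression (FPKM, vertical axis, from 0) of the 8 genes against label time (hr), with 1 point per library, control in gray and 6AN in red. The 6AN line lies above the control line at all 12 time points in each panel, and the lines of *ASNS* and *SLC1A5* come closer from 36 hr as control expression goes up.

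*ASNS* (chr7:97852117-97872542, hg38) had the largest difference of the 8. In control its lowest, median and highest FPKM were 24.3 at 4 hr, 33.4, and 76.3 at 44 hr. In 6AN they were 65.7 at 4 hr, 93.0, and 121 at 44 hr. The ranges overlapped only in that control at 44 hr was above 6AN at 4 hr. The mean log2 ratio was 1.20 ± 0.38 (SD over 12 time points), or 2.29-fold, and 0.880% of expressed loci had a larger one. The ratio ranged from 1.59 at 20 hr down to 0.52 at 40 hr. Averaged from 0 to 32 hr (n = 9) it was 1.39, and from 36 to 44 hr (n = 3) it was 0.62, a split chosen after the values were seen.

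SLC7A5 and SLC3A2 work as a dimer, in which SLC7A5 is the light chain that carries the substrate and SLC3A2 the heavy chain that takes it, and several other light chains, to the cell surface. Their transcripts differed unequally between the conditions. For *SLC3A2* (chr11:62856012-62888883) the lowest, median and highest control FPKM were 98.6, 120 and 150. The 6AN values were 217, 243 and 288, so every 6AN library was above every control library. The mean log2 ratio was 1.01 ± 0.19, or 2.02-fold. It fell to 0.99 without 20 hr or 24 hr, and to just under 1 without 4 hr, so its place above 2-fold depends on single time points. It was 1.10 from 0 to 32 hr and 0.75 from 36 to 44 hr.

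For *SLC7A5* (chr16:87830023-87869494) the corresponding values were 72.8, 89.1 and 118 in control and 96.7, 109.6 and 123 in 6AN. These series overlapped, and they were closest at 0 hr, where the log2 ratio was 0.06. The mean log2 ratio of *SLC7A5* was 0.27 ± 0.14, and 17.8% of expressed loci had a larger one. Within a library the *SLC7A5* to *SLC3A2* ratio does not depend on how the tables were scaled. It was 0.753 ± 0.058 (SD over time points; range 0.679 to 0.891) in control and 0.451 ± 0.040 (0.364 to 0.507) in 6AN. The light chain was thus lower relative to the heavy chain in 6AN at all 12 time points, by a log2 difference of −0.74 ± 0.15, and the conditions did not overlap.

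**Figure D2:**
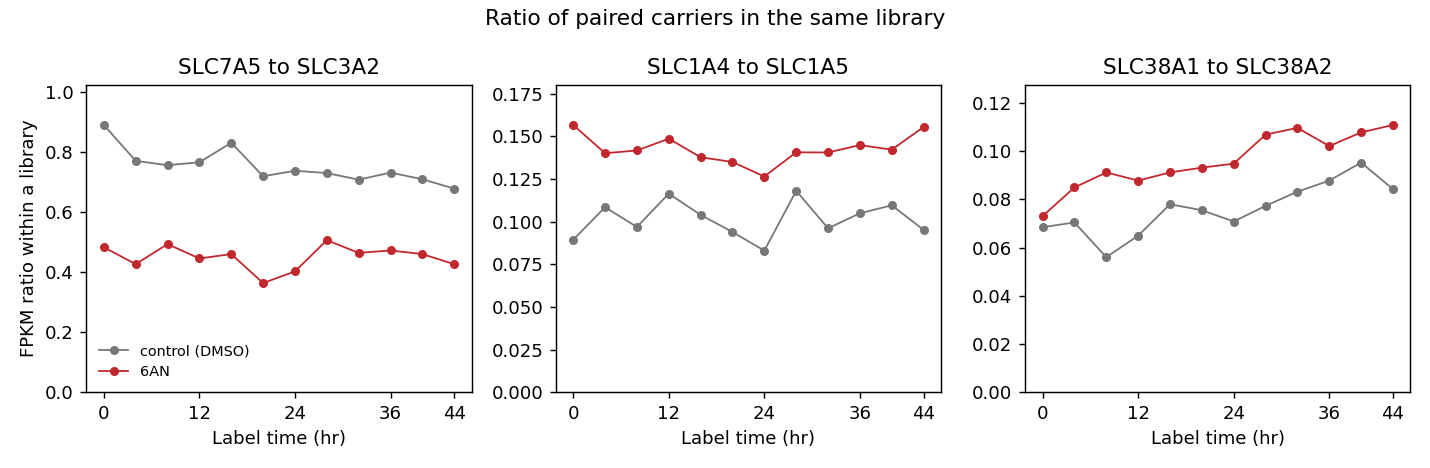
FPKM ratio of 2 related carriers in the same library (vertical axis, from 0) against label time (hr), control in gray and 6AN in red, 1 point per library. The *SLC7A5* to *SLC3A2* ratio is lower in 6AN at all 12 time points, and the *SLC1A4* to *SLC1A5* and *SLC38A1* to *SLC38A2* ratios are higher.

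*SLC1A5* and *SLC1A4* encode sodium-dependent exchangers of small neutral amino acids, of which SLC1A5 is a main entry route for glutamine and SLC1A4 carries alanine, serine, cysteine and threonine. *SLC1A5* (chr19:46774883-46788585) had lowest, median and highest FPKM of 103, 120.5 and 173 in control and 181.5, 205 and 224 in 6AN. *SLC1A4* (chr2:64988445-65023866) was expressed at a lower level, with 9.16, 12.1 and 18.4 in control and 25.4, 30.0 and 34.9 in 6AN. In both genes every 6AN library was above every control library. The mean log2 ratio was 0.71 ± 0.22 for *SLC1A5*, or 1.63-fold, and 1.14 ± 0.23 for *SLC1A4*, or 2.21-fold. The *SLC1A4* to *SLC1A5* ratio within a library was 0.101 ± 0.011 in control and 0.142 ± 0.008 in 6AN, higher at all 12 time points and without overlap. As with *ASNS*, the difference between conditions was smaller from 36 to 44 hr, at 0.38 for *SLC1A5* against 0.81 before, and 0.87 for *SLC1A4* against 1.24.

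*SLC38A1* and *SLC38A2* encode sodium-coupled carriers that accumulate glutamine and other small neutral amino acids. *SLC38A1* (chr12:46183056-46269425) had the lowest level of the 8 genes, with 6.19, 8.38 and 10.05 FPKM (lowest, median and highest) in control and 9.76, 12.6 and 16.5 in 6AN. Its mean log2 ratio was 0.54 ± 0.17, or 1.45-fold, and the series overlapped only in that the lowest 6AN library, at 0 hr, lay within the control range. *SLC38A2* (chr12:46358188-46372862), from the neighboring region, was expressed at 104.9, 110.7 and 120.5 FPKM in control and 120, 133.7 and 148.6 in 6AN. Its difference was the smallest of the 8, with a mean log2 ratio of 0.25 ± 0.10, and 19.4% of expressed loci had a larger one. The locus as deposited reaches past the *SLC38A2* gene of RefSeq, which ends at 46372773, into the long noncoding RNA *SLC38A2-AS1*, which starts at 46372783, and whether reads were counted by strand is not given in the sources used here. Within a library the *SLC38A1* to *SLC38A2* ratio was 0.0760 ± 0.0108 in control and 0.0962 ± 0.0116 in 6AN, higher in 6AN at all 12 time points with overlapping ranges.

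*SLC7A1* (chr13:29509414-29595688) encodes the cationic amino acid carrier that takes up arginine, lysine and ornithine. Its lowest, median and highest FPKM were 16.2, 20.2 and 22.5 in control and 28.7, 30.6 and 36.4 in 6AN, with no overlap. The mean log2 ratio of 0.65 ± 0.11, or 1.57-fold, varied little over time, from 0.51 at 0 hr to 0.83 at 28 hr, and was 0.65 before 36 hr and 0.63 from 36 hr on.

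**Figure D3:**
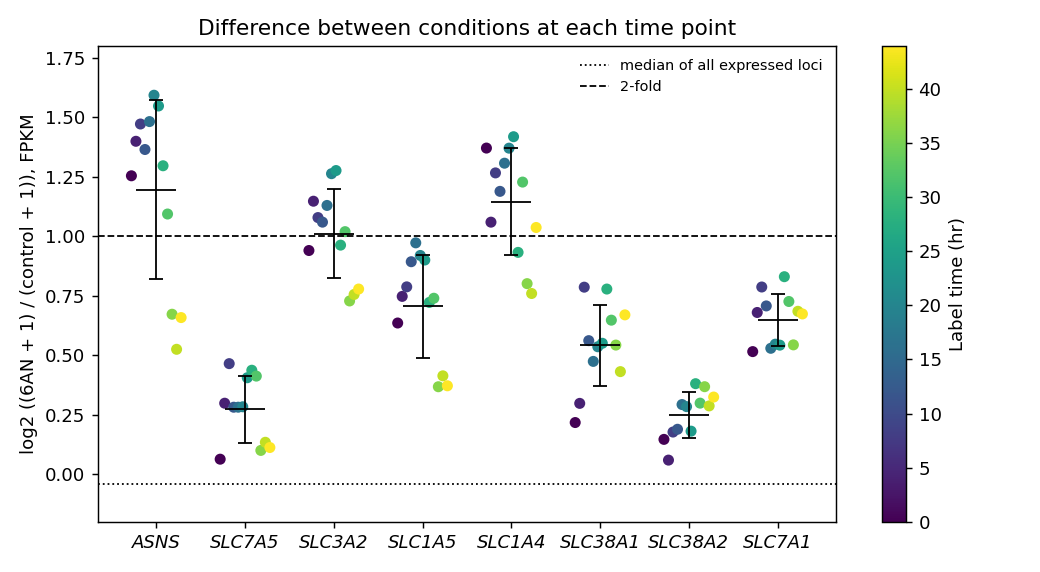
Log2 ratio of 6AN to control (FPKM + 1, vertical axis) for each gene, with 1 point per time point colored by label time (hr) and black bars for the mean ± SD over 12 time points. All points lie above 0, and for *ASNS*, *SLC1A5* and *SLC3A2* the points from 36 to 44 hr (yellow and light green) are the lowest.

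FPKM is scaled by transcript length, so levels can be compared between genes of a table. In control the order of mean FPKM was *SLC1A5* (129), *SLC3A2* (122), *SLC38A2* (112), *SLC7A5* (91.5), *ASNS* (42.3), *SLC7A1* (19.7), *SLC1A4* (13.1) and *SLC38A1* (8.54). The first 3 did not separate beyond their spread, since *SLC1A5* was above *SLC3A2* at 7 of 12 time points and *SLC3A2* above *SLC38A2* at 8. In 6AN *SLC3A2* (245) came first, above *SLC1A5* (208) at all 12 time points, followed by *SLC38A2* (134), *SLC7A5* (110), *ASNS* (92.9), *SLC7A1* (31.3), *SLC1A4* (29.6) and *SLC38A1* (12.9). *ASNS* was below *SLC7A5* at 11 of 12 time points in 6AN and at all 12 in control. *SLC7A1* was above *SLC1A4* at all 12 time points in control and at 10 of 12 in 6AN, and their ranges overlapped in both.

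The trend over time was then tested within each table, as a slope of log2(FPKM + 1) per 24 hr fitted with limma across all expressed loci. In control 2 of the 8 genes rose at an adjusted p of at most 0.05, against 3.13% of expressed loci that rose and 3.13% that fell. These were *ASNS*, with a slope of 0.79 ± 0.12 (SE; limma adjusted p = 0.00382), and *SLC1A5*, with 0.36 ± 0.08 (limma adjusted p = 0.0246). Neither call held without the last 3 time points. That fit had fewer libraries, and the calls over all expressed loci fell from 876 to 96. The *ASNS* call did hold when 36, 40 or 44 hr was left out alone (limma adjusted p from 0.00998 to 0.0197). Without 36 to 44 hr the control slope of *ASNS* was 0.46 with a limma adjusted p of 0.248, and that of *SLC1A5* was 0.10 with 0.663. The *SLC1A5* call was also lost when 4, 36, 40 or 44 hr was left out alone (limma adjusted p from 0.05004 to 0.0931). The control slopes of *SLC1A4* (0.35 ± 0.10, limma adjusted p = 0.0685) and *SLC38A1* (0.24 ± 0.06, limma adjusted p = 0.0526) did not pass. Each passed without 1 library, *SLC1A4* without 24 hr (limma adjusted p = 0.0191) and *SLC38A1* without 0 hr (0.0355).

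In 6AN 5 of the 8 genes rose and none fell, against 12.3% of expressed loci that rose and 13.1% that fell. *SLC38A1* had the steepest slope, 0.36 ± 0.04 (limma adjusted p = 0.000157), from 9.76 FPKM at 0 hr to 16.5 at 44 hr. *ASNS* rose by 0.33 ± 0.06 (limma adjusted p = 0.00235), *SLC7A1* by 0.16 ± 0.02 (limma adjusted p = 0.000971) and *SLC1A5* by 0.14 ± 0.03 (limma adjusted p = 0.00365). *SLC38A2* passed with 0.11 ± 0.03 (limma adjusted p = 0.0359). That call was lost when 4, 8, 12, 32, 36 or 44 hr was left out, with limma adjusted p from 0.0594 to 0.121. *SLC1A4*, at 0.13 ± 0.05 (limma adjusted p = 0.0603), did not pass but did without 0 hr (0.0246) or without 24 hr (0.0311). Without 36 to 44 hr, 2 genes still passed in 6AN, *ASNS* (limma adjusted p = 0.0167) and *SLC38A1* (0.00203).

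*SLC7A5* and *SLC3A2* passed in neither table. Their slopes were −0.02 ± 0.09 and 0.12 ± 0.08 in control, and −0.07 ± 0.04 and −0.06 ± 0.05 in 6AN. The difference between the slopes of the tables was not tested. The median slope of the 8 genes was 0.19 in control and 0.14 in 6AN, and that of all expressed loci was 0 in both.

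**Figure D4:**
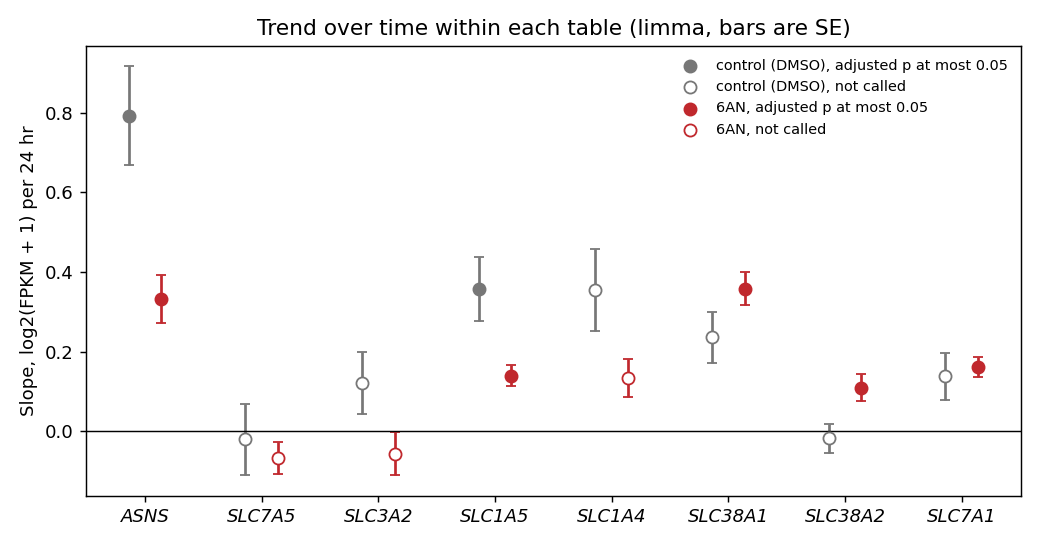
Slope of log2(FPKM + 1) per 24 hr (vertical axis) for each gene in control (gray) and 6AN (red), with bars for the SE of the limma fit and filled points for an adjusted p of at most 0.05. Filled points are *ASNS* and *SLC1A5* in control, and *ASNS*, *SLC1A5*, *SLC38A1*, *SLC38A2* and *SLC7A1* in 6AN.

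The study used the rhythm test RAIN, so 24 hr rhythms were looked for with an umbrella rank test of the same kind. None of the 8 genes was called at p of at most 0.01 in either table, against 0.937% of expressed loci in control and 1.02% in 6AN. At p under 0.05, which 5.04% and 4.19% of expressed loci reached, the count was 1 in control, *SLC7A1* (umbrella permutation p = 0.0497, adjusted p = 0.953), and 0 in 6AN, where the smallest was *SLC1A5* (umbrella permutation p = 0.0697, adjusted p = 1). A limma cosine fit also called 0 of the 8 at p of at most 0.01 in both tables, against 1.05% of expressed loci in control and 1.19% in 6AN, and *SLC7A1* in control had a limma p of 0.0266. With 12 libraries per table no locus of the transcriptome passed after adjustment (smallest umbrella adjusted p = 0.105 in control and 0.592 in 6AN). At the same unadjusted p of at most 0.01, RAIN in the study called more transcripts per condition than the umbrella test did. The umbrella test called 131 loci in control and 142 in 6AN. Rhythms of the 8 genes were thus not detected with this test, and were not shown to be absent.

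The loci whose time course was most like that of *ASNS* were ranked by Pearson's r of log2(FPKM + 1) over the 12 time points, averaged over both tables. These were *MTHFD2* (mean r = 0.947), *RSL24D1* (0.932), *UHRF1BP1* (0.929), *GARS* (0.929) and *SHMT2* (0.928). *MTHFD2* and *SHMT2* encode mitochondrial enzymes of folate one-carbon metabolism, and *GARS* encodes glycyl-tRNA synthetase. *MTHFD2* averaged 91.1 FPKM in control and 161 in 6AN, *SHMT2* 65.2 and 108, and *GARS* 113 and 165. Among the carriers *SLC1A5* ranked 20 (mean r = 0.883), *SLC38A1* 49 (0.844), *SLC1A4* 153 and *SLC7A1* 208 of the expressed loci. *SLC38A2*, *SLC3A2* and *SLC7A5* ranked 1809, 3542 and 6222, and for these the tables differed. The r was 0.006 in control and 0.924 in 6AN for *SLC38A2*, 0.731 and −0.156 for *SLC3A2*, and 0.366 and −0.225 for *SLC7A5*. These coefficients describe 12 libraries per table that share a slow trend, and carry no test.

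Other amino acid carriers differed less between the conditions. Of 27 listed, 19 were expressed, with a median log2 ratio of 0.15. Of these 19, 7 were higher in 6AN at all 12 time points, against 13% of all expressed loci, and 1 was lower, against 20.4%. The carrier of cationic amino acids *SLC7A2* (3.77 ± 0.36 FPKM in control, 9.18 ± 1.29 in 6AN) had a mean log2 ratio of 1.09. It was the only one of the 19 to reach 2-fold and to have series that did not overlap. Among all expressed loci, 1.51% reached 2-fold higher in 6AN and 2.78% reached 2-fold lower. Series did not overlap for 5.89% that were higher in 6AN and 10.3% that were lower. *SLC7A11*, the cystine-glutamate exchanger that pairs with SLC3A2, had a mean log2 ratio just under 1 (6.40 ± 2.55 FPKM in control, 13.3 ± 2.78 in 6AN), with overlap. The glutamate and aspartate carrier *SLC1A3* was on the other side, at −0.52 (8.66 ± 1.33 FPKM in control, 5.84 ± 1.59 in 6AN). Over time 2 of the 19 rose and 0 fell in control, and 5 rose and 4 fell in 6AN (limma adjusted p of at most 0.05). Of all expressed loci, 3.13% rose and 3.13% fell in control, and 12.3% rose and 13.1% fell in 6AN.

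Other genes known as targets of ATF4, with *ATF4* itself, differed more. Of 18 listed, 17 were expressed, of which 8 had a mean log2 ratio of at least 1, against 1.51% of all expressed loci. In 6AN 14 were higher at all 12 time points, against 13%, and 9 had series that did not overlap, against 5.89%. The median log2 ratio was 0.93. The 3 largest were *TRIB3*, a pseudokinase that inhibits AKT (2.003 ± 0.48), *DDIT3*, the stress transcription factor CHOP (1.81 ± 0.42), and *PPP1R15A*, a phosphatase subunit that restores translation after stress (1.30 ± 0.13). *ATF4*, chosen after its values were seen, went from 510 ± 86.3 FPKM in control to 964 ± 77.1 in 6AN, without overlap. In control 10 of the 17 rose over time, and in 6AN 15 did, with 0 falling in either (limma adjusted p of at most 0.05). The shares among all expressed loci were 3.13% rising and 3.13% falling in control, and 12.3% rising and 13.1% falling in 6AN. The locus of *ATF5*, 1 of the 8 at or above 2-fold and named after its values were seen, varied greatly between time points (SD of its log2 ratio 3.38). It shares its row with a microRNA gene.

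**Figure D5:**
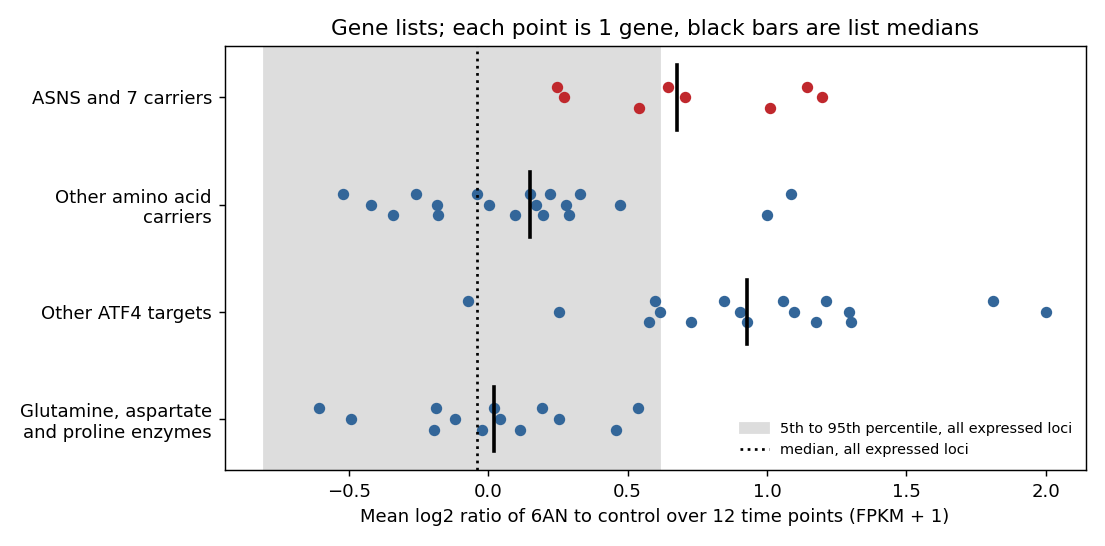
Mean log2 ratio of 6AN to control over 12 time points (FPKM + 1, horizontal axis) with 1 point per expressed gene, a row for each gene list and black bars for list medians. The gray band is the range from the 5th to the 95th percentile of all expressed loci (−0.81 to 0.62) and the dotted line their median (−0.04); list medians were 0.68 for *ASNS* and the 7 carriers, 0.15, 0.93 and 0.02 from top to bottom.

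The promoters of the 8 genes were searched on both strands for 4 short motifs, in the RefSeq windows (GRCh38.p14) from 250 bases before to 50 after each start site. The C/EBP-ATF response element, searched as TGATGNAAN, was found for 6 of the 8, all but *SLC7A5* and *SLC38A2*. Of the 27305 genes with a window, 4.45% held it. Counted by window, it was in 6 of the 15 of these genes and in 3.61% of all 35116. Bases outside the windows were not searched, and a link between the motif and expression was not tested. The sequences below are the matches of the 6 genes, 5′ to 3′ on the strand of the gene, with the match in capitals. In *ASNS* it began 68 bases upstream of a start site, and both lay inside the locus as deposited (sequence shown chr7:97872448-97872496, minus strand). In *SLC1A5* it began 97 bases upstream of an internal start site (sequence shown chr19:46784883-46784931, minus strand).
ASNS: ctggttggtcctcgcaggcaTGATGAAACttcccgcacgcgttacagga
SLC1A5: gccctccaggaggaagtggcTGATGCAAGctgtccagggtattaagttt
In the other 4 the match lay across or just after a start site, which for *SLC7A1* was the 5′ end of the locus and for *SLC1A4*, *SLC38A1* and *SLC3A2* was inside the locus. The matches were chr2:64989391-64989399 in *SLC1A4*, chr12:46266512-46266520 in *SLC38A1*, chr13:29595673-29595681 in *SLC7A1* and chr11:62881735-62881743 in *SLC3A2*. In *SLC1A4* and *SLC3A2* it was on the opposite strand, so the capitals read as its reverse complement.
SLC1A4: gcggctcccgTTTGCATCAtctccagccg
SLC38A1: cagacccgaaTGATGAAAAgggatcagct
SLC7A1: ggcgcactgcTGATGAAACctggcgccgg
SLC3A2: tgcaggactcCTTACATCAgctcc
The matches of *ASNS* and *SLC7A1* had the same 9 letters. The stricter ATF4 core TTGCATCA, which overlaps the longer motif, was found in *SLC1A4* and *SLC1A5*, and in 1.08% of all genes. A match describes letters in a window and is not evidence of binding.

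The E-box CACGTG, the motif bound by BMAL1/CLOCK, was found in the promoters of *SLC1A5* and *SLC7A5*, and in 8.77% of all genes. The *SLC7A5* match (chr16:87869632-87869637) began 130 bases upstream of the start site, and is shown here in capitals within chr16:87869612-87869657 (minus strand).
SLC7A5: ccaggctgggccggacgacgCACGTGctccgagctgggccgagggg
No BMAL1 or CLOCK peak was listed within 50 kb of either gene. In all, 2 of the 8 genes, *SLC3A2* and *SLC38A2*, had a peak of BMAL1 or CLOCK within 50 kb, against 46.9% of expressed loci. Each antibody and condition had 1 library, so peaks listed in 1 condition are given as such and carry no test.

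*SLC3A2* had 2 BMAL1 peaks that overlapped its locus, 1 across its 5′ edge and 1 inside it, both listed in 6AN only. The first (chr11:62855872-62856072, peak score 29.1) overlapped the end of the long noncoding RNA *SNHG1*, at 62855885, and stopped short of the RefSeq *SLC3A2* gene, which begins at 62856109. The second (chr11:62881552-62881752, peak score 20.3) covered an internal start site, and the bases under it upstream of that site are shown because they hold TGACTCAGC, a match to the antioxidant response element core TGACNNNGC (chr11:62881552-62881698).
SLC3A2 promoter: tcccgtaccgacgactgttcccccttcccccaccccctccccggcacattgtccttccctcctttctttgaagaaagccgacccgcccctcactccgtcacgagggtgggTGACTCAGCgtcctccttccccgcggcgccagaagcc
That core, to which NRF2 binds, was also found for *SLC1A5*, *SLC7A1* and *SLC7A5*, and for 16.1% of all genes. No *SLC3A2* window held CACGTG. A CLOCK peak listed in 6AN only (chr11:62921755-62921955) lay 32872 bases from the locus. It overlapped *CHRM1*, which reaches 62921878, and lay inside the long noncoding RNA *LOC105369333*.

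*SLC38A2* had a BMAL1 peak listed in control only, inside the locus near its 5′ end (chr12:46372416-46372616, peak score 20.8). A further interval 10516 bases away (chr12:46383378-46383658) held BMAL1 peaks of both conditions and a CLOCK peak of 6AN. There the signal, in tags per site scaled to a common library size, of BMAL1 was 32.8 in control and 45.6 in 6AN. The CLOCK signal was 13.5 and 50.5. This site was listed as shared by BMAL1 and CLOCK in 6AN and not in control, so a higher CLOCK signal in 6AN follows from that choice. The input signal was 9.32 and 12.4. H3K4me3 was 264 and 317, and H3K9ac 227 and 237. The authors' annotation assigned this site to the noncoding gene *LOC100288798*, at −148 bases from its start, and not to *SLC38A2*.

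For the series as a whole, libraries of a table differed in depth, from 0.582 to 1.32 of the table's median in control and from 0.699 to 1.56 in 6AN, and read totals were not used here. The mesenchymal markers *VIM* (802 to 1102 FPKM in control, 660 to 887 in 6AN) and *SPARC* (290 to 368, and 87.2 to 185) were high, whereas *COL1A2*, which osteoblasts express with *COL1A1*, was at most 0.106 in either condition. *COL1A1* was 84.5 to 170 in control and 13.3 to 73.8 in 6AN, *CD44* was 32.5 to 43.8 and 54.8 to 72.8, and *RUNX2* was 11.9 to 17.6 and 11.6 to 16.5. Markers of leukocytes (*PTPRC*), epithelium (*EPCAM*, *CDH1*) and hepatocytes (*ALB*) were at or near 0, with 1.69 as the highest value in either condition. Of the 6 mesenchymal markers, *SPARC* and *COL1A1* were thus lower and *CD44* higher in every 6AN library than in any control library, and their part in these results was not tested.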

How the data were processed

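RNA-seq covered *Bmal1*:*luc* U2OS cells at 12 time points in 6AN or DMSO (24 libraries, single-end reads of rRNA-depleted total RNA), and ChIP-seq covered 10 libraries. Loci of a merged hg38 annotation have FPKM values in the tables deposited by the authors, 1 for each condition and normalized on its own. The submitters' processing notes name Bowtie, TopHat and Cufflinks, and for ChIP-seq Bowtie2 and HOMER, with versions not given in the sources used here. RNA was extracted in triplicate by the methods, and whether extracts were pooled is not given there. For ChIP-seq the authors deposited the HOMER signal of each library at shared BMAL1/CLOCK sites, and a list of 4001 merged peaks with the mean HOMER peak score and the name of each contributing peak. All groups came from the labels.

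Python 3.11.15, NumPy 2.4.6, pandas 2.3.3, matplotlib 3.10.9, R 4.3.3 and limma 3.58.1 were used. Values were log2(FPKM + 1), and loci needed a mean of at least 1 FPKM over 24 libraries. Slopes and cosine fits used limma per table, with Benjamini-Hochberg adjustment over 13979 loci. The umbrella test, after RAIN, folded the 12 libraries into 6 phases of 2, tried 18 shapes with rises of 8, 12 or 16 hr, and compared the largest statistic with 1000000 random orders. The scripts for slopes and rhythms were tested on simulated data. Depth was known only relative to the other libraries of a table (estimated from the step sizes of low FPKM values), so no counting error was computed. The tables hold 1 library per condition and time point, so p-values measure only the scatter of single libraries about a curve.

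The 8 genes, the other gene lists and the motifs were chosen with earlier results of these data known. Besides the 8, the text names the 3 genes of each list with the largest mean log2 ratio in size and the 5 loci most like *ASNS*. 1 gene that this rule would name is not reported here. A gene outside this rule is marked, or is a cell type marker or a neighbor of a peak. Alternatives covered a pseudocount of 0.1, joint rescaling of all libraries, medians over time, filters on low values, rank and cosine tests, and leaving out each time point. Promoter sequences were those of RefSeq (GRCh38.p14), with 15 windows for the 8 genes.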

Additional observations from a re-analysis of the deposited data

How the results depend on the processing

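The labels carry no replicate numbers, so no replicate block was fitted, and the log2 ratios were paired by time label. The median of the 8 mean log2 ratios was 0.69 with a pseudocount of 0.1, 0.73 with all libraries rescaled together, 0.71 with medians over time, 0.73 without 36 to 44 hr, and 0.66 to 0.70 when each time point was left out. The number of genes at or above 2-fold was then 2 to 3. Without the filter on low values the share of all loci at or above 2-fold was 0.942%.

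Genes of the 8 that rose in control were 1 to 3 when a time point was left out, 1 with a Spearman rank test and 0 without 36 to 44 hr, a choice made after seeing the data. In 6AN they were 4 to 6, and 2 without 36 to 44 hr. With the Spearman rank test in 6AN, *SLC38A2* did not pass (Spearman adjusted p = 0.068), whereas *SLC1A4* did (Spearman adjusted p = 0.0409). The loci with a trend numbered 876 in control, 551 to 876 when a time point was left out and 96 without 36 to 44 hr, and 3553 in 6AN, 2478 to 3494 and 2080. Fewer libraries entered these fits, and no other cause was tested. Slopes that did not pass and turned direction in control were *SLC7A5* without 0 hr, *SLC38A2* without 0 hr or 40 hr, and *SLC3A2* without 36 to 44 hr (−0.10). Leaving out each time point, the *SLC7A5* slope ranged from −0.0816 to 0.0946 and the *SLC38A2* slope from −0.0481 to 0.00974. In 6AN the *SLC38A2* slope had a limma adjusted p of 0.0562 with no filter, and that of *SLC1A4* 0.0492 after rescaling. Without 36 to 44 hr, *SLC1A5* (0.0667), *SLC7A1* (0.0651) and *SLC38A2* (0.0808) did not pass in 6AN.

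At p of at most 0.05 in place of 0.01, the umbrella test called 1 of the 8 genes in control, with 705 loci in control against 131, and 586 in 6AN against 142. Leaving out a time point gave 111 to 190 and 96 to 148 loci, and 0 of the 8 genes in both.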

Other observations

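Enzymes of glutamine, glutamate, aspartate, proline and linked amino acid metabolism differed little between the conditions as a list. All 13 listed were expressed, with a median log2 ratio of 0.02. In 6AN 3 were higher and 3 lower at all 12 time points, against 13% and 20.4% of all expressed loci. Of the 13, 0 reached 2-fold, against 1.51% of all expressed loci that were higher in 6AN by that much and 2.78% that were lower. Series without overlap were found for 0 of the 13, against 5.89% of all expressed loci higher in 6AN and 10.3% lower. These counts carry no test. The alanine transaminase *GPT2* was higher in 6AN at all 12 time points (15.9 ± 2.96 FPKM in control and 23.3 ± 2.92 in 6AN, mean log2 ratio 0.54 ± 0.15, SD over 12 time points), and the asparaginase *ASRGL1*, which breaks down asparagine, was lower in 6AN at all 12 time points (5.33 ± 0.79 FPKM in control and 3.51 ± 0.64 in 6AN, mean log2 ratio −0.49 ± 0.22). Over time 2 of the 13 rose and 1 fell in control, and 4 rose and 2 fell in 6AN (limma adjusted p of at most 0.05). Of all expressed loci, 3.13% rose and 3.13% fell in control, and 12.3% rose and 13.1% fell in 6AN.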
